A study of Mus musculus with 6 samples.

Results

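The interferon-induced transmembrane (Ifitm) genes encode small membrane proteins with a shared CD225 domain. Ifitm1, Ifitm2, Ifitm3, Ifitm6 and Ifitm10 were taken from the deposited gene table by their gene names, 5 of its 55487 genes. The cells were bone-marrow LSK cells, the lineage-negative fraction with Sca-1 and Kit on its surface in which stem cells and early progenitors are found. Of the 6 libraries, 3 were made from wild-type littermates and 3 from Mc5r-/- mice (Mc5r-null), which lack the melanocortin 5 receptor. The mice of both genotypes are described as irradiated. The dose, the time after it, and the age and sex of the mice are not given in the sources used here. The comparison therefore asks how the family differed between genotypes after irradiation. Nothing in the labels ties a library to a mouse, so p-values refer to the spread among the libraries, part or all of which may be technical.

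IFITM proteins sit in the plasma membrane and in endosomes, where they hinder the fusion of enveloped viruses with the cell. Ifitm3 acts mainly in endosomes, and Ifitm1 lies more at the cell surface. Interferons raise these genes in most tissues, and stem cells are known for carrying several of them without an interferon stimulus.

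Of the family, 4 genes lie on chromosome 7 (GRCm38) within 63.1 kb. Ifitm2 (ENSMUSG00000060591) is at chr7:140954837-140955987 on the minus strand. Ifitm1 (ENSMUSG00000025491) follows at chr7:140967221-140969825 and is the member on the plus strand. Ifitm3 (ENSMUSG00000025492) is at chr7:141009586-141010770 and Ifitm6 (ENSMUSG00000059108) at chr7:141015699-141017924, both on the minus strand. Ifitm10 (ENSMUSG00000045777) lies 1308 kb farther on, at chr7:142325837-142373753, also on the minus strand.

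Some members share long stretches of sequence, which bears on how reads can be placed. Over the aligned coding sequences, Ifitm2 and Ifitm3 were 75.9% identical, Ifitm1 and Ifitm3 63.5%, and Ifitm1 and Ifitm2 60.4%. The other 7 pairs were between 41.6% and 59.1%. The longest stretch that Ifitm2 shares with Ifitm3 is 69 coding bases, at chr7:140955718-140955786 in Ifitm2 and chr7:141010445-141010513 in Ifitm3, shown here because no read inside it could be given to either gene alone. All its letters are capitals, as all are shared.
Ifitm2 and Ifitm3: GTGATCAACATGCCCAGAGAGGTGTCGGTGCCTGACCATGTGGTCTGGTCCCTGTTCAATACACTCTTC
Of the 50-base stretches of Ifitm2, 48.5% also occur in a transcript of another gene, against 10.0% for Ifitm3, 7.72% for Ifitm1, 4.996% for Ifitm10 and 0 of 614 for Ifitm6. At 100 bases the share was 34.9% for Ifitm2 and 3.56% for Ifitm10, and it was 0 for Ifitm1, Ifitm3 and Ifitm6. The 6 processed pseudogenes that share 50 bases with Ifitm1, Ifitm2 or Ifitm3 held 24 to 35 counts together in a library.

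Of the 294 50-base stretches that Ifitm2 shares, 219 occur in Gm45717 (ENSMUSG00000110104), a gene model annotated as protein coding at chr7:140949222-140955937 on the same strand. Its single transcript of 495 bases joins 268 bases of the first exon of Ifitm2 to 227 bases of the second exon of Ifitm5, a relative of the family known for its role in bone. Both of its exons lie wholly inside those 2 genes. Only a read or read pair that reaches from one exon to the next separates it from both. The junctions are shown because reads across them could tell Gm45717 from Ifitm2. Capitals mark the last 30 bases of the shared exon (chr7:140955670-140955699), and lower case the first 30 of the next exon, at chr7:140955144-140955173 for Ifitm2 and chr7:140949419-140949448 for Gm45717.
Ifitm2: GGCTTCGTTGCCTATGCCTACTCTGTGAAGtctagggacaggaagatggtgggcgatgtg
Gm45717: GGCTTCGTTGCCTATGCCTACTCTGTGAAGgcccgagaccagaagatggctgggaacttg

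The libraries held 13983016 to 14953169 counts each. Mc5r, the targeted gene, was at 11.97 ± 1.39 CPM (SD, n = 3) in wild type and fell to 0.0238 ± 0.0413 in the null. CPM are a gene's counts scaled to the same library total. Pomc, the gene of the melanocortin precursor, had a log2 fold change of 0.53 with an edgeR adjusted p of 0.0651, Mc1r was too low to test, and Mc2r, Mc3r and Mc4r had no count. Of the genes that define LSK cells, the stem cell factor receptor gene Kit stood at 241 and 256 CPM in the genotypes, and Ly6a, which encodes Sca-1, at 59.3 and 66.6. Cd34 and Flt3, which divide LSK cells into subsets, stood at 553 and 654 and at 391 and 529. Genes of the neutrophil lineage were present as well, with its 17 markers summing to 18390 to 19390 CPM in wild type and 12060 to 12380 in Mc5r-null. Whether mature cells or progenitors carried them was not tested. Genotype was tested with edgeR's quasi-likelihood test on 15257 genes that passed a filter on low counts, with Benjamini-Hochberg adjustment over all of them. At an adjusted p under 0.05 it called 32.9% of them, 16.8% as higher in Mc5r-null and 16.1% as lower. With limma on log2 FPKM (plus 0.1), 1998 of 4929 called genes were higher, against 2567 of 5023 in edgeR. In 49.8% of the tested genes the 3 CPM values of a genotype did not overlap with those of the other, so separated groups were common in these data. The median log2 fold change of the tested genes was -0.0047.

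Ifitm1 was higher in the Mc5r-null libraries and was the 1 member called among the 4 that passed the filter. Ifitm3 and Ifitm6 were not called, and Ifitm2 was low in some Mc5r-null libraries and at the wild-type level in another. A share of 1 in 4 members called lies near the background share of called genes and is not a result about the family as a group.

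Ifitm1 had 271, 270 and 279 CPM in wild-type replicates 1, 2 and 3, and 399, 399 and 390 in the Mc5r-null replicates. The groups lay well apart and each was tight. The means were 273 ± 4.75 and 396 ± 5.25 CPM (SD, n = 3). In counts, Ifitm1 had 4029 to 4151 in wild type and 5452 to 5614 in Mc5r-null. Its log2 fold change was 0.57 ± 0.022 (SE), a fold of 1.48, with an edgeR adjusted p of 3.757e-07. By p-value Ifitm1 stood at rank 142 among the tested genes. It is an abundant transcript in these cells, as only 2.74% of the tested genes had a higher mean CPM.

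**Figure D1:**
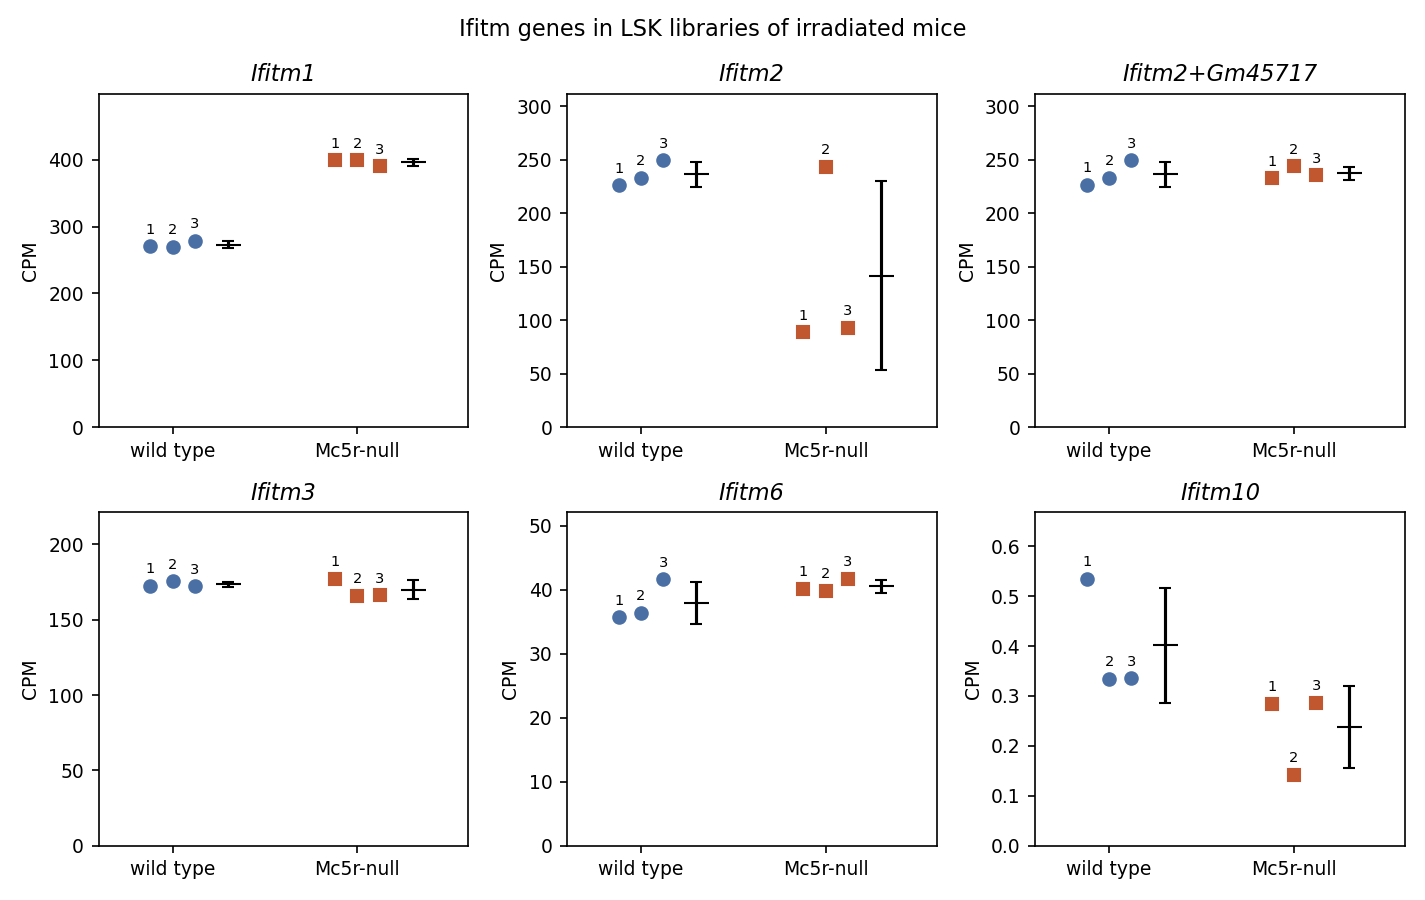
CPM (y axis, from 0, a scale for each gene) of the 5 Ifitm genes, and of Ifitm2 with the overlapping Gm45717 added, in wild-type (circles) and Mc5r-null (squares) libraries. Numbers give the replicate and bars the mean ± SD of 3 libraries. Ifitm1 separates the genotypes, Ifitm2 splits the Mc5r-null libraries, and the sum with Gm45717 does not.

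Ifitm2 had 226, 233 and 250 CPM in wild type. In Mc5r-null it had 88.9, 243 and 92.8 CPM in replicates 1, 2 and 3. Mc5r-null replicates 1 and 3 were thus far below every other library, while replicate 2 lay inside the wild-type range, and the groups overlap. The log2 fold change was -0.70 ± 0.48 (SE), with an edgeR adjusted p of 0.347. Without Mc5r-null replicate 2 the same test gave -1.35 with an adjusted p of 1.128e-06, a call that rests on the library left out. Such splits were uncommon at this level. Of 1003 tested genes at the mean CPM of Ifitm2 or above, 12 had a spread over 2-fold within a genotype, against 7.62% of all tested genes.

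In the 2 libraries in which Ifitm2 was low, the overlapping Gm45717 was high. That gene model had 5, 0 and 0 counts in wild type and 2022, 8 and 1993 in Mc5r-null replicates 1, 2 and 3. Of the counts on both genes, Gm45717 held 61.8% (95% Wilson interval 60.1% to 63.5%) in Mc5r-null replicate 1 and 60.6% (58.9% to 62.2%) in replicate 3. It held 0.233% (0.118% to 0.459%) in Mc5r-null replicate 2 and 0.148% (0.0631% to 0.345%) in wild-type replicate 1. In wild-type replicate 2 it held 0 of 3484, which allows a share of up to 0.0861% by a limit of 3 counts (Wilson upper bound 0.110%). In wild-type replicate 3 it held 0 of 3720, which allows up to 0.0806% by that limit (Wilson 0.103%). Intervals and limits cover counting error only, as copies made by PCR are not independent molecules. Gm45717 did not pass the filter on low counts, so it was not tested alone. Ifitm5, whose exon holds the other end of Gm45717, had 10 to 19 counts in wild type and 19 to 21 in Mc5r-null, with no split between the Mc5r-null replicates.

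Summed, Ifitm2 and Gm45717 had 227, 233 and 250 CPM in wild type and 233, 244 and 235 in Mc5r-null. The groups overlap and no library stands apart. Their means were 237 ± 11.8 and 237 ± 5.84 CPM (SD, n = 3), with a log2 fold change of 0.04 ± 0.038 (SE) and an edgeR adjusted p of 0.475 in a fit with both as 1 gene, chosen after seeing the data. In that fit the called genes were again 16.8% higher, with Ifitm1 among them. Whether reads of Ifitm2 were put to Gm45717 in Mc5r-null replicates 1 and 3, or came from a joined transcript, was not tested. The deposited counts are per gene and do not show which reads cross a junction. Counts of Ifitm2 alone should be read with this limit.

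**Figure D2:**
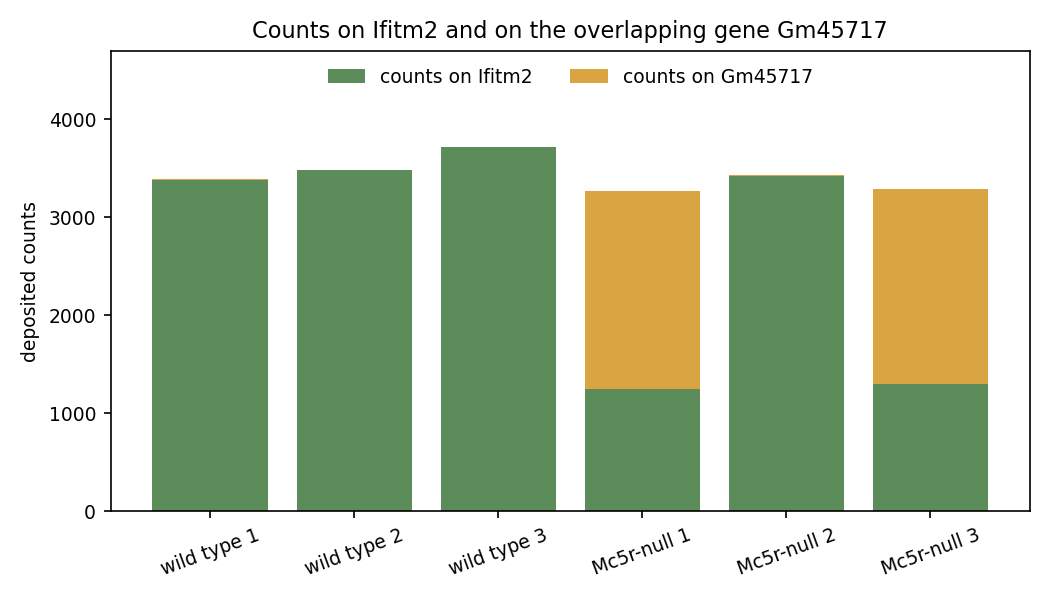
Deposited counts (y axis, from 0) on Ifitm2 and, stacked above, on Gm45717 in each of the 6 libraries. Gm45717 holds 2022 and 1993 counts in Mc5r-null replicates 1 and 3 and at most 8 in the other libraries, while the stacks reach 3272 to 3720.

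Ifitm3, the member with the best-known part in defence against influenza virus, had 173, 176 and 172 CPM in wild type. In Mc5r-null it had 177, 166 and 166 CPM. The Mc5r-null values fall on both sides of the wild-type ones. The log2 fold change was 0.0037 ± 0.032 (SE), with an edgeR adjusted p of 0.946. Across 16 other settings it ranged from -0.031 to 0.021 and was not called.

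Ifitm6, a member known from macrophages, had 35.6, 36.4 and 41.6 CPM in wild type. In Mc5r-null it had 40.1, 39.8 and 41.7 CPM. Wild-type replicate 3 lay among the Mc5r-null values, so the groups overlap. The log2 fold change was 0.13 ± 0.067 (SE), with an edgeR adjusted p of 0.170. Without wild-type replicate 3 it was 0.20 with an adjusted p of 0.0347, so this library decided that call.

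Ifitm10, a divergent relative, was near the limit of detection. It had 8, 5 and 5 counts in wild type and 4, 2 and 4 in Mc5r-null, too few for the filter. The 18 counts against 10, pooled over libraries, give a ratio of Mc5r-null to wild type of 0.591, with an exact 95% interval of 0.244 to 1.35. That interval covers counting error only and includes equal levels, so no difference was detectable at this depth. In CPM the groups did not overlap (0.335 to 0.535 in wild type, 0.142 to 0.286 in Mc5r-null), as in 49.8% of the tested genes. Part of its locus is shared with the gene model Gm49369.

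**Figure D3:**
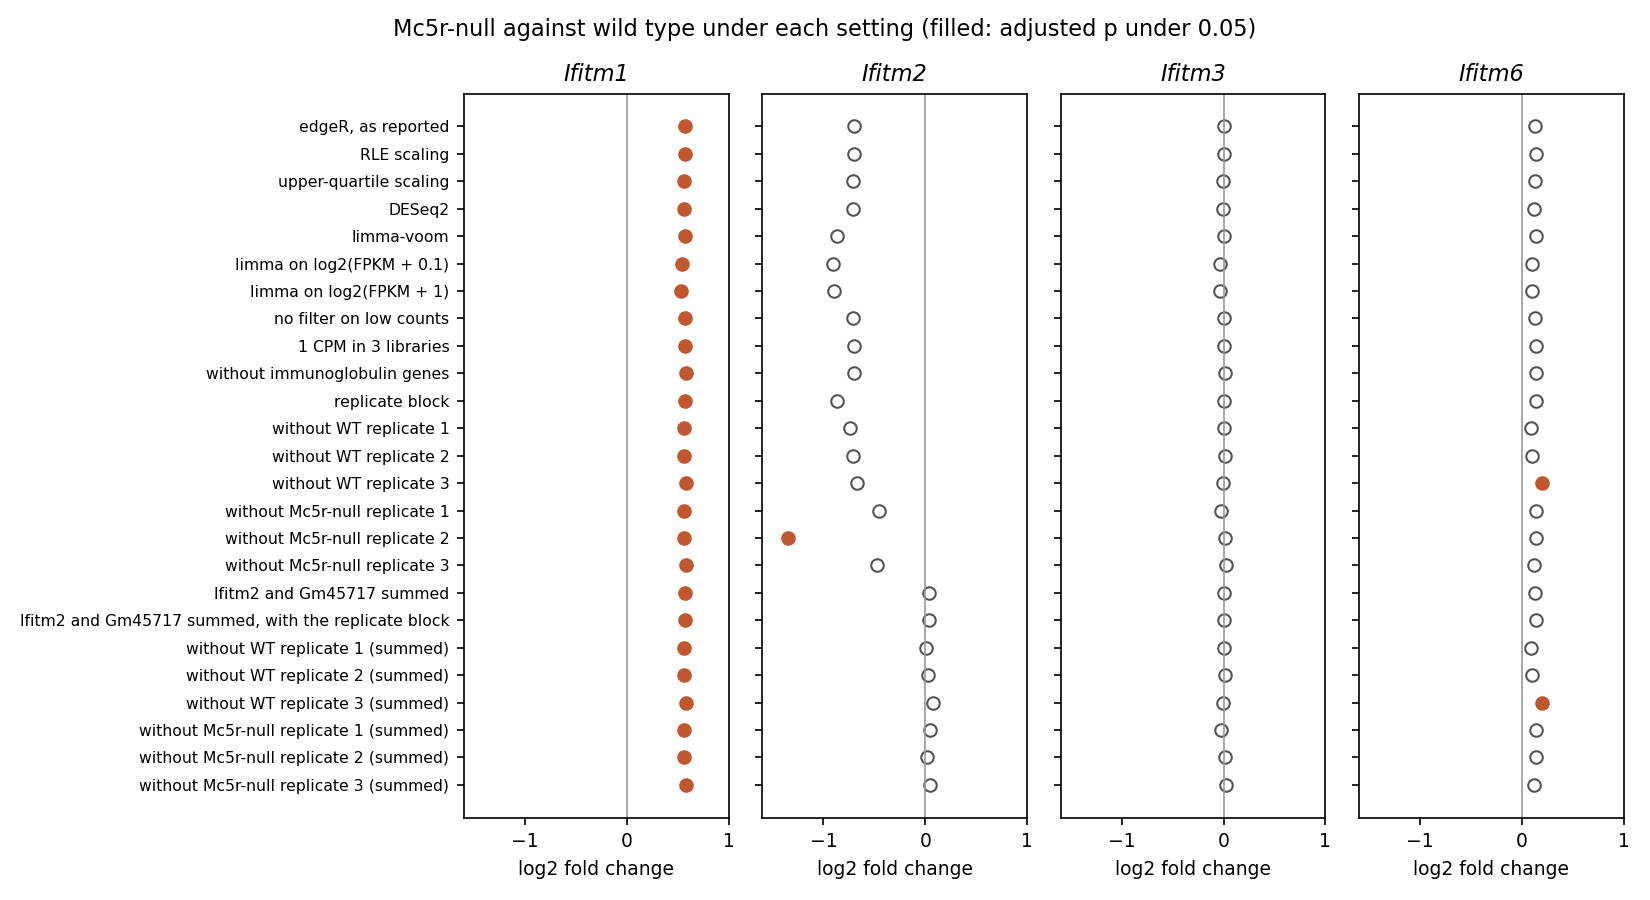
Log2 fold change of Mc5r-null against wild type (x axis) of the 4 tested members under each of 25 settings (rows), filled where the adjusted p was under 0.05. Ifitm1 keeps to 0.53 to 0.58, Ifitm2 spans -1.35 to -0.46 as deposited and 0.01 to 0.08 when summed with Gm45717, Ifitm3 lies between -0.03 and 0.02, and Ifitm6 between 0.09 and 0.20 with a call only without wild-type replicate 3.

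A call in Ifitm1 and none in the others does not show that the members differed, so the log2 ratio of each pair's CPM was compared between genotypes. There were 6 pairs, and with 3 libraries per genotype an exact permutation test cannot give a p below 0.1. The ratio of Ifitm1 to Ifitm3 went from 0.65 ± 0.037 in wild type to 1.22 ± 0.047 in Mc5r-null (SD, n = 3), a difference of 0.57 with no overlap (two-sided exact p = 0.1, adjusted 0.2). That of Ifitm1 to Ifitm6 differed by 0.43 with no overlap (exact p = 0.1, adjusted 0.2). Against Ifitm2 as deposited, Ifitm1 differed by 1.44, and against the sum of Ifitm2 and Gm45717 by 0.53, both with no overlap (exact p = 0.1, adjusted 0.2). The ratios of Ifitm1 to each other tested member thus separated the genotypes, at the smallest p this test can give, which does not pass after adjustment. These ratios all hold the same values of Ifitm1, so they are not separate results. Single genes separated the genotypes in CPM in 49.8% of those tested. Among the rest, the sum of Ifitm2 and Gm45717 differed from Ifitm3 by 0.04 (exact p = 0.6), and Ifitm3 from Ifitm6 by -0.13 (exact p = 0.3), in both cases with overlap.

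The family's summed CPM was 706, 715 and 742 in wild type and 706, 848 and 691 in Mc5r-null. Only Mc5r-null replicate 2 lay above the wild-type range. The ratio of the means was 1.04 (two-sided exact permutation p = 1). With the counts of Gm45717 added, the Mc5r-null sums were 850, 849 and 834 and the ratio was 1.17 (exact p = 0.1, the smallest possible). The sums of the genotypes overlapped without Gm45717 and were apart with it, as the CPM values of 49.8% of the tested genes were. Ifitm1 alone went from 273 to 396 CPM. Ifitm2 with Gm45717 stood at 237 and 237 CPM, Ifitm3 at 173 and 170, and Ifitm6 at 37.9 and 40.5. The higher sum with Gm45717 is thus that of Ifitm1 and not a rise across the family.

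Levels of different members can be compared only per length, for which the authors' FPKM (fragments scaled to gene length and library total) were used. In wild type the order was Ifitm2 at 361 ± 18.3 FPKM, Ifitm3 at 256 ± 2.62, Ifitm1 at 209 ± 3.64, Ifitm6 at 19.1 ± 1.64 and Ifitm10 at 0.0383 ± 0.0110 (SD, n = 3), with no neighbours in this order overlapping. In Mc5r-null, with Gm45717 put to Ifitm2 on the length of Ifitm2, the order was Ifitm2 at 362 ± 8.91, Ifitm1 at 303 ± 4.02, Ifitm3 at 251 ± 9.39, Ifitm6 at 20.4 ± 0.513 and Ifitm10 at 0.0226 ± 0.00788. Ifitm1 and Ifitm3 thus changed places between the genotypes on this scale. On the same basis Ifitm1 went from 24.8% to 32.4% of the family's summed FPKM, Ifitm2 from 42.7% to 38.7%, and Ifitm3 from 30.3% to 26.7%, each with no overlap (exact p = 0.1). Shares of a whole are bound to each other, so a higher share of Ifitm1 lowers the others. In FPKM, Ifitm2 with Gm45717 was at 361 and 362 and Ifitm3 at 256 and 251, so their lower shares are not falls of their own. Ifitm6 was at 2.25% and 2.18% on the deposited lengths. As deposited, the Mc5r-null shares were 39.0% for Ifitm1, 26.1% for Ifitm2 and 32.3% for Ifitm3.

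That order depends on the length used. The deposited FPKM imply a length of 1305 bases for Ifitm1 and 1986 for Ifitm6, the sum of their distinct annotated exons, in which an exon shared by transcripts counts once and exons that overlap in part each count in full. Merged exons give 1094 and 905 bases, and the longest transcripts 882 and 813. Ifitm2 (655) and Ifitm3 (678) have 1 transcript each and do not move. On merged exons Ifitm1 in wild type had 250 ± 4.34 CPM per kb, overlapping with Ifitm3 at 256 ± 2.62. On the longest transcript it had 310 ± 5.39, above Ifitm3, and in Mc5r-null it had 449 ± 5.95, above the 362 ± 8.91 of Ifitm2 with Gm45717. The share of Ifitm6 in the family in wild type was 4.60% on merged exons and 4.78% on the longest transcript. The difference between genotypes within a gene is the same on each length.

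**Figure D4:**
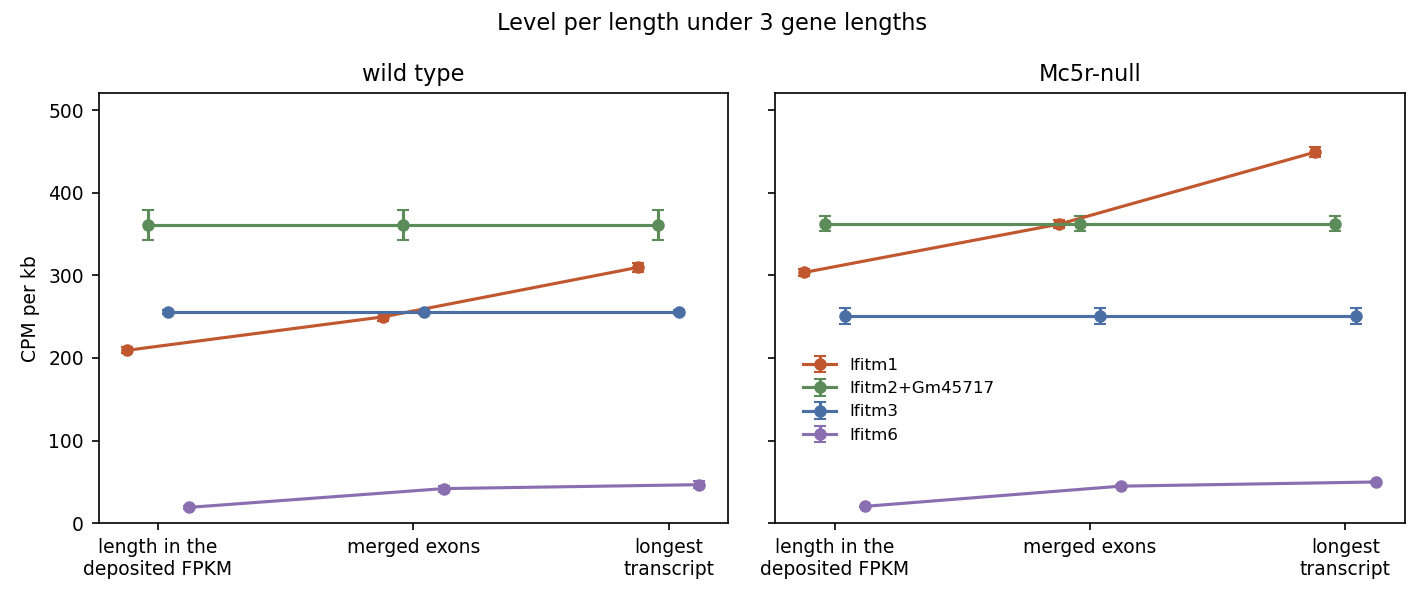
CPM per kb (y axis, from 0) of Ifitm1, Ifitm2 with Gm45717, Ifitm3 and Ifitm6 on 3 gene lengths (x axis), in wild type (left) and Mc5r-null (right), as mean ± SD of 3 libraries. Ifitm1 goes from 209 to 310 in wild type and from 303 to 449 in Mc5r-null as its length shortens, and crosses Ifitm3 in wild type.

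The start regions of the members were searched for 2 interferon motifs in RefSeq promoters (GRCm38.p6, 250 bases before to 50 after each start, both strands). One was GAAANNGAA, the core of the interferon-stimulated response element known from genes that answer to type I interferon, found in 8.56% of 32851 such windows. The other was TTCNNNGAA, the gamma-activated site known from genes that answer to interferon gamma, found in 8.30%. All 5 members had a window, and Ifitm10 had 3. The matches are shown with 10 bases on each side, the motif in capitals, on the minus strand of chromosome 7. They lie at chr7:140955989-140956017 in Ifitm2, at chr7:141010724-141010752, chr7:141010707-141010735 and chr7:141010713-141010741 in Ifitm3, and at chr7:141016884-141016912 in Ifitm6.
Ifitm2, response element core: ccaccaacagGAAAAGGAAattgctagag
Ifitm3, first response element core: caaaattcagGAAAAGGAAacttctgaga
Ifitm3, second response element core: aaacttctgaGAAACCGAAactgccgcag
Ifitm3, gamma-activated site: aaaaggaaacTTCTGAGAAaccgaaactg
Ifitm6, gamma-activated site: ccatatgaacTTCCTTGAAacaagagctt
In Ifitm3 the gamma-activated site overlaps the second response element core. Neither motif was found in the windows of Ifitm1 and Ifitm10, which says only that these letters are not in those windows. Ifitm1, the called member, was thus not among the members with a match.

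The wider CD225 family was sparse in these cells. Of 9 other members in the table, Syndig1, Tmem233 and Trarg1 had no count, 3 had too few for the filter, and Ifitm5, Ifitm7 and Tmem91 passed it. Of these 3, edgeR called 0, with 0 at an unadjusted p under 0.05, and the other tools and settings called 0 as well. Ifitm5 had 0.960 ± 0.300 CPM (SD, n = 3) in wild type against 1.42 ± 0.0665 in Mc5r-null, a log2 fold change of 0.60 with an edgeR adjusted p of 0.128. Ifitm7 on chromosome 16 had a log2 fold change of -0.12 with an edgeR adjusted p of 0.684. Beside the 16.8% and 16.1% of all tested genes that were called higher and lower, the median of these 3 genes was -0.12.

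Interferon transcripts were almost absent, and genes of the interferon response were called in both directions. None of the 21 interferon ligand genes passed the filter, and 13 had no count in any library. Their summed level was 0.939 to 1.47 CPM in wild type and 1.07 to 2.28 in Mc5r-null. Of 19 interferon receptor and signalling genes, all tested, 2 were called higher and 5 lower, with a median log2 fold change of -0.15 beside -0.0047 over all tested genes. The share called lies near the 32.9% of all tested genes and is not a result about the list. Usp18, which shuts off signalling at the type I receptor, had 10.3 ± 0.265 CPM in wild type and 5.18 ± 0.536 in Mc5r-null, a log2 fold change of -0.95. Ifngr2, a chain of the interferon gamma receptor, was lower by a log2 fold change of -0.47, and the kinase gene Jak1 and the repressor gene Irf2 were higher by 0.19 and 0.27.

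Of 42 interferon-induced antiviral effector genes, 40 were tested, 5 were called higher and 10 lower, with a median of -0.11. This share called, too, lies near the 32.9% of all tested genes. Oas1a, which makes the activator of RNase L, went from 44.5 ± 1.43 to 31.1 ± 0.560 CPM, a log2 fold change of -0.48. Cmpk2, a mitochondrial nucleotide kinase gene, had a log2 fold change of -0.57. Higher were Uba7, the enzyme that activates ISG15 (0.26), and Ddx58, the RNA sensor RIG-I (0.30). All 4 passed edgeR's test at adjusted p-values of 0.000178 to 0.00143.

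**Figure D5:**
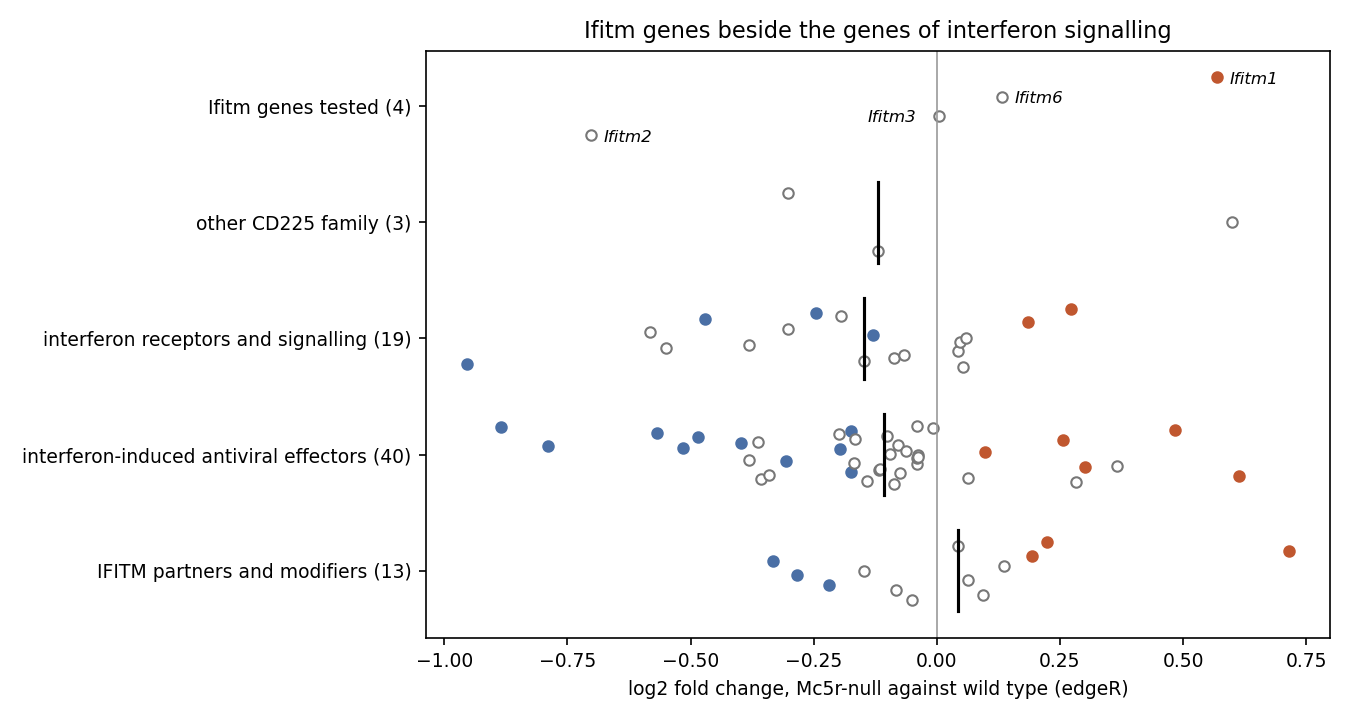
Log2 fold change of Mc5r-null against wild type (x axis) of the 4 tested Ifitm genes and of the tested genes of 4 lists (rows, number tested in brackets). Filled points passed edgeR's test, higher on the right and lower on the left, and black lines mark each list's median. For the receptor and signalling list 1 gene is not drawn, while its count and median include it. Ifitm1 stands at 0.57, while the interferon lists have medians of -0.15 and -0.11.

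Transcripts of proteins that work with IFITM proteins or modify them were also compared. Of 13 genes, all tested, 3 were called higher and 3 lower, beside 16.8% and 16.1% of all tested genes, with a median log2 fold change of 0.04. Zmpste24, a membrane protease through which IFITM proteins act on virus entry, went from 96.5 ± 2.91 to 77.5 ± 2.44 CPM, a log2 fold change of -0.28. Vapa, a membrane contact protein that IFITM3 binds, was at -0.22. The tetraspanin genes Cd9 and Cd81, whose products sit in membrane complexes with IFITM1 or its relatives, went opposite ways, at -0.33 and 0.22. The 4 genes passed edgeR's test at adjusted p-values of 0.000812 to 0.00341. Zdhhc2, an enzyme that attaches palmitate to proteins, and the kinase gene Fyn were the other genes called higher, at 0.71 and 0.19.

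Around the members, the table holds 36 other genes within 100 kb, of which 15 passed the filter, 5 were called higher and 1 lower. The share called is near the 32.9% of all tested genes and is not a result about the locus. The nearest called gene to the cluster was B4galnt4, a glycosyltransferase gene 43.2 kb from Ifitm6, with 10.5 ± 0.163 CPM in wild type and 17.3 ± 1.03 in Mc5r-null, a log2 fold change of 0.76. Pkp3, a desmosome gene 60.3 kb from Ifitm6, was at 0.64, and Sigirr, a brake on interleukin-1 and Toll-like receptor signalling 73.3 kb from Ifitm6, at 0.63. The mitochondrial deacetylase gene Sirt3, 72.5 kb from Ifitm2, was at 0.29, and Lsp1, an actin-binding protein gene of leukocytes 87.1 kb from Ifitm10, at 0.30. Gm15542 was called lower at -0.10. The 6 genes passed edgeR's test at adjusted p-values of 0.000194 to 0.0201. Nearer to the members, Gm49369 (overlapping Ifitm10) and Ifitm5 (4.55 kb from Ifitm2) had log2 fold changes of -1.54 and 0.60. Their edgeR adjusted p-values were 0.125 and 0.128. Pgghg (7.17 kb from Ifitm2), Ctsd (2.16 kb from Ifitm10) and Gm7514 (16.1 kb from Ifitm3) were at -0.0030, 0.03 and 0.32. These genes were chosen for their distance after their values were seen, and none was called.

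For each tested member, the most alike genes were sought among 11552 tested genes by the root mean square difference of centred log2 CPM over the 6 libraries. For Ifitm1 they were Stk17b (0.0137), a kinase gene of lymphocytes, Mllt6 (0.0223) and Dusp5 (0.0243), a phosphatase of nuclear ERK. Stk17b went from 208 ± 5.02 to 302 ± 1.19 CPM. Ifitm1 was not alone in its profile, as 332 of the 11552 genes lay within 0.1 of it. No gene came within 0.1 of Ifitm2, and the closest were Slc25a35 (0.189), Epb41 (0.259) and Zfp239 (0.291). Epb41, a gene of the red cell membrane skeleton, had 160, 164 and 155 CPM in wild type and 88.8, 171 and 90.3 in Mc5r-null, so it was low in the same 2 libraries as Ifitm2. For Ifitm3 (Prkaca, Rpl23a-ps3 and Cdca5) and Ifitm6 (Fam234a, Rabgap1l and Rpgrip1l) the differences were 0.0089 to 0.0113 and 0.0227 to 0.0345, with 3980 and 1778 genes within 0.1.

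Markers of several cell types moved with genotype beside Ifitm1. Of all tested genes, 16.8% were called higher and 16.1% lower. Of 20 long-term stem cell markers 17 were called higher and 1 lower, their summed level going from 1033 to 1072 CPM in wild type to 1165 to 1184 in Mc5r-null. The 17 markers of B and plasma cells were called higher in 12 and lower in 4, with sums of 11790 to 11870 and 37240 to 39670 CPM. Most of these sums came from the immunoglobulin genes Igha (4946 CPM in wild type and 17952 in Mc5r-null) and Igkc (4290 and 14017). Of 13 markers of endothelium and stroma 11 were tested and 6 were higher, with sums of 152.9 to 174.5 and 185.0 to 194.5 CPM and Lepr at 0 counts in every library. The 13 erythroid markers were higher in 11 and lower in 1, at 388 to 395 and 574 to 584 CPM. In T and NK cells, of 15 markers 10 were tested, 3 were higher and 1 lower, a share near the 32.9% of all tested genes. The 15 markers summed to 308 to 310 and 262 to 263 CPM. Most of that sum is Nkg7, the 1 called lower, with 267 CPM in wild type and 205 in Mc5r-null, while Lck, Cd3e and Prf1 were the genes called higher. Myeloid markers were called in the other direction in larger number. Of 17 neutrophil markers 3 were higher and 11 lower. Monocytes and macrophages had 16 markers, of which 2 were higher and 12 lower, at 1022 to 1115 and 583 to 606 CPM. Of 14 basophil and mast cell markers none was higher and 11 were lower, at 759.5 to 790.1 and 424 to 483 CPM, with Cma1 at 0 in every library. In such bulk samples fewer cells of a type and less RNA per cell cannot be told apart, and the part of these cell types in the value of Ifitm1 was not tested. Without the immunoglobulin genes Ifitm1 had a log2 fold change of 0.58 with an edgeR adjusted p of 1.185e-06.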

How the data were processed

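Poly-A RNA of LSK cells was sequenced as paired-end stranded libraries, per the labels. The authors deposited 1 table with whole-number counts and FPKM per gene and library. The submitters' processing notes name CASAVA 1.8, HISAT2, StringTie, edgeR and GRCm38 without roles, and the counting program, its annotation and its use of strand are not given in the sources used here. GENCODE M21, which lists 99.4% of the table's gene IDs, gave exons and transcripts. The ratio of CPM to the deposited FPKM gave the length behind the FPKM.

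The members and gene lists were chosen with earlier results of these data known. Counts were fitted in R 4.3.3 with edgeR 4.0.16 (filterByExpr with a minimum count of 10 and total of 15, TMM, robust quasi-likelihood test). CPM use library totals without TMM, so CPM ratios differ slightly from fitted folds. Named were all members, the 6 genes of smallest p within 100 kb, up to 4 genes of smallest p per interferon, CD225 and IFITM partner list, the melanocortin genes, and the 3 genes most alike in profile (average log2 CPM of at least 1, official symbol). Other genes named were chosen after their values were seen, among them Gm45717, Zdhhc2, Fyn, Nkg7, Lck, Cd3e, Prf1 and the LSK markers. Values of 1 gene of the receptor and signalling list are not reported here, while the list's counts include it. Single values were compared by exact permutation of the 6 libraries.

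Alternatives were RLE and upper-quartile scaling, DESeq2 1.42.0, limma 3.58.1 (voom, and log2 FPKM plus 0.1 or 1), no filter, 1 CPM in 3 libraries, no immunoglobulin genes, the replicate number as a block, each library left out and an adjusted p under 0.01. Sums of Ifitm2 with Gm45717 and the other lengths were added after the data were seen. In simulated counts for this comparison (15257 genes), 57% of 100 genes changed 1.5-fold, 90% of 100 changed 2-fold and 23 of 15057 unchanged genes were called. The 23 stood beside 57 and 90 calls of changed genes, so 23 of 15057 is not the share of false calls among calls. Far fewer genes were changed there than the 32.9% called in the data, so these shares need not carry over. No library repeated another, as counts of replicates differed beyond sampling noise in the mean over genes (chi-square per gene of 5.99 to 8.20). Genes with a split between replicates can raise such a mean, and not every gene had this spread. Ifitm2 had 1250, 3426 and 1298 counts in Mc5r-null, while Igkc had 196857, 196817 and 196633. Whether the replicates are technical repeats was not tested. Coding sequences were aligned with Biopython 1.88. The members' proteins were not analysed here.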

Additional observations from a re-analysis of the deposited data

How the results depend on the processing

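Ifitm1 was called in all 16 other settings of the fit and in all 8 fits with Ifitm2 and Gm45717 summed, with log2 fold changes of 0.53 to 0.58. The number of members called was 1 in each of these fits except when a library was left out, where it ranged from 1 to 2. It was 2 without wild-type replicate 3, through Ifitm6, with or without the sum, and 2 without Mc5r-null replicate 2, through Ifitm2, as deposited only. The family's summed CPM ratio of 1.04 lay between 0.936 and 1.09 under other scalings, as summed FPKM and with each library left out, and became 1.17 with Gm45717 added. Ifitm2 kept a negative value in those 16 settings (-1.35 to -0.46) and ranged from 0.0075 to 0.076 in the summed fits, none called. Equal replicate numbers did not pair the libraries (correlations of 0.00255, -0.0408 and -0.0240 across genes). With the replicate block 1 member and 4402 of all genes were called, against 5023, Ifitm1 was at 0.57 and Ifitm2 at -0.87, and the family ratio was 1.04. Of the values with other settings, 163 kept their side or size, 48 moved and 3 were called newly. No value called in the reported fit changed its sign, but Ifitm2, called lower at -1.35 without Mc5r-null replicate 2, was at 0.02 in the summed fit without that library. Depth limited Ifitm10 and the interferon ligand genes. Across 16 settings, the called counts were 4 to 5 higher and 8 to 11 lower for the effector list, 2 higher and 3 to 5 lower for receptors and signalling, and 2 to 3 higher and 3 to 4 lower for the partners.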
